A study of Drosophila melanogaster with 80 samples.

Results

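The transcripts described here are those of the mitochondrial respiratory chain in whole adults of Oregon R, a wild-type laboratory stock of the fruit fly Drosophila melanogaster. Members were all genes whose platform symbol starts with ND-, COX, ATPsyn, UQCR or Sdh and that have a probe set naming no other gene, which gave 73 of the 11982 genes measured. By symbol 32 belonged to complex I, 7 to complex II, 6 to complex III, 14 to complex IV and 14 to complex V. They fell into 51 canonical subunits, 21 paralogs whose symbol ends in L or in L and a digit (COX4L beside COX4, for example), and 1 assembly factor, Sdhaf3. Another 18 of the 91 RefSeq symbols that fit the rule, among them COX6B and SdhA, were not analysed here.

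The respiratory chain lies in the inner mitochondrial membrane. Complex I takes electrons from NADH and complex II from succinate, complex III passes them through cytochrome c to complex IV, which reduces oxygen, and complex V, the ATP synthase, uses the proton gradient built on the way to make ATP. Flight muscle is packed with mitochondria, and in many insects, Drosophila included, a number of subunit genes have a duplicate that is used mainly in the testis.

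RNA from whole adults was hybridised to 80 Affymetrix Drosophila Genome 2.0 arrays, 20 groups of 4, after the flies had spent 14 days at 25 °C on food with 0.15 M sucrose (the control diet, CD) or with 1 M sucrose (the high-sucrose diet, HSD). All flies were Oregon R, were unmated males or virgin females and started treatment at 3 to 4 days of age. The F0 groups were males on CD, males on HSD, females on CD and females on HSD. The F1 and F2 groups were males and females on CD or on HSD, each with F0 male forebears that had eaten either CD or HSD, called CD ancestry and HSD ancestry below. The labels leave the diet of the F2 flies' own parents unstated. Vials held 30 flies, and whether replicate arrays come from different vials is not stated, so the spread behind each p value is that among these arrays only and may be technical.

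Values are RMA log2 signals, and a change is a difference of log2 means with its standard error (SE). RMA corrects background, normalizes arrays and summarizes the probes of a probe set. A signal also depends on its probes, so each gene is compared with itself and not with other genes. Each sex in F0, and each combination of generation, sex and own diet in F1 and F2, was normalized as a set of its own, so tests stay within a set and levels across sets are given side by side. In 6 arrays, all of HSD ancestry, transcripts limited to the other sex stood over 0.5 above the lowest array of the set: replicates 1 and 4 of the CD-fed F1 males, replicate 1 of the HSD-fed F1 females, and replicates 1, 2 and 4 of the HSD-fed F2 males. Smaller excesses, under 0.5, stood in arrays of both ancestries. With CD ancestry the largest were 0.39 in replicate 4 of the HSD-fed F1 males and 0.38 in replicate 1 of the HSD-fed F1 females. The array carries control probe sets at both ends of the actin, GAPDH and eIF-4a transcripts, and the mean gap between the 3′ and the 5′ signal, a measure of RNA integrity and of labelling, ranged over the group means from 2.68 to 2.98 in F0, from 2.71 to 4.11 in CD-fed descendants and from 1.28 to 1.83 in HSD-fed descendants.

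The paralogs gave a higher signal in males. In F0 flies on CD all 21 were lower in females by 1 log2 unit or more with no overlap between the sexes, against 27.7% of all genes that were lower and 21.6% that were higher by this measure. The median female minus male difference was -5.35 for the paralogs, -0.28 for the 51 canonical subunits and -0.02 for all genes. Relative to each array's median, which was 6.64 in these males and 5.47 in these females, the medians were -4.18 for the paralogs, 0.89 for the canonical subunits and 1.15 for all genes. This scaling adds the same amount to every gene, so it cannot change the order of these medians. In F0 flies on CD the canonical median lay below that of all genes. In CD-fed F1 flies it lay above, at 0.12 against -0.01 with CD ancestry and 0.17 against -0.01 with HSD ancestry. In the remaining pairs of a male and a female group it lay below. These are descriptions across separately normalized sets, with no test.

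COX4L, a paralog of a nuclear-encoded complex IV subunit, read 10.84, 10.76, 10.79 and 10.74 in F0 CD males and 3.21, 3.23, 3.36 and 3.30 in F0 CD females, while canonical COX4 read 12.97, 13.002, 12.99 and 13.003 in the males and 12.67, 12.79, 12.70 and 12.73 in the females. COX5BL read from 9.84 to 10.004 in the males and from 3.18 to 3.33 in the females. SdhBL, paralog of the iron-sulfur subunit of succinate dehydrogenase, averaged 9.34 ± 0.09 in the males and 3.15 ± 0.13 in the females (SD, n = 4). Their canonical partners lay closer, COX5B at 12.78 in the males and 12.39 in the females and SdhB at 11.73 and 10.86.

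In F0 CD females the mean signal of COX7AL2 was 10.27, while those of the other 20 paralogs were at or below 5.25. COX7AL2 read 11.97, 11.91, 12.01 and 12.001 in F0 CD males and 10.15, 10.44, 10.22 and 10.27 in F0 CD females. Its probe set is of a kind (_s_at) that can match several transcripts, as are those of 10 other members. Over the 10 pairs of a male and a female group of the same generation, diet and ancestry, all 21 paralogs were lower in females by 1 log2 unit or more in 8 pairs and 20 were in the pairs of HSD-fed F2 flies, where COX7AL2 differed by less.

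Among canonical subunits only ND-B8, an accessory subunit of complex I, was lower in F0 CD females by over 1 log2 unit, at 9.15 ± 0.07 in males and 6.87 ± 0.08 in females (SD, n = 4). Sdhaf3, which helps mature the iron-sulfur subunit of complex II, was higher in females, at 9.86 ± 0.05 against 8.79 ± 0.06. Of all genes 652 were limited to F0 CD males and 78 to F0 CD females, by a gap of at least 5 log2 units, and 12 paralogs were among the male-limited genes: ATPsynCF6L, ATPsynGL, COX4L, COX5BL, COX6AL, COX6AL2, COX6CL, COX7AL, ND-B14.5AL, SdhBL, SdhCL and UQCR-14L. No member was female-limited. The testis markers, 23 measured of 24 listed, averaged 9.55 in F0 CD males and 3.88 in F0 CD females, so the paralogs and these markers lay apart between the sexes in the same direction.

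COX7C has a second probe set, not used in the tests, with a pattern of its own. The one used read 12.81 ± 0.02 in F0 CD males and 12.52 ± 0.03 in F0 CD females, and the other 9.03 ± 0.04 and 3.34 ± 0.12 (SD, n = 4).

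**Figure D1:**
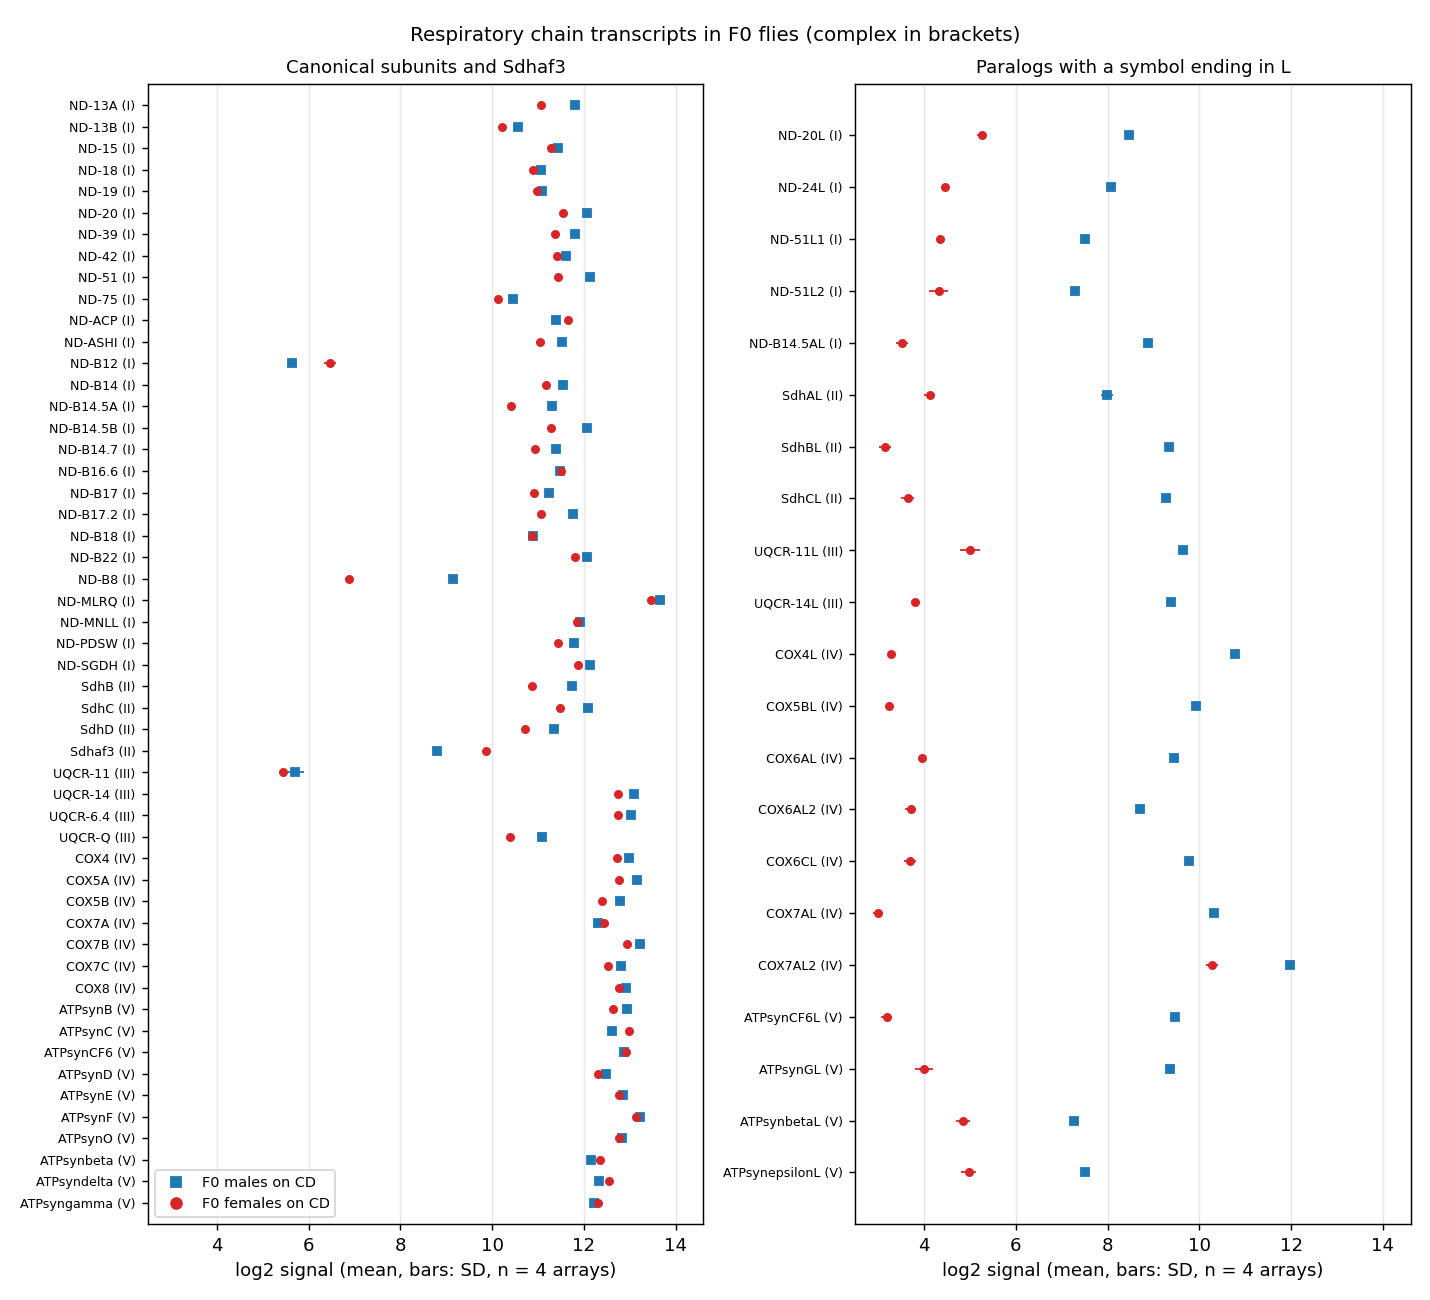
Level of every member in F0 flies on CD, as the mean log2 signal (horizontal axis, bars show the SD of 4 arrays) with males as squares and females as circles and the complex in brackets. The paralogs on the right lie apart between the sexes, by a median of 5.35 log2 units, while most canonical subunits on the left lie within 1 unit.

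The first comparison asked how males responded to the high-sucrose diet they ate themselves. In F0 males 12 of 21 paralogs rose and 0 fell, with a median change of 0.19, while 0 of 51 canonical subunits rose and 5 fell, with a median of -0.04. Over all genes 19.6% rose and 11.1% fell at an adjusted p under 0.05 (limma, Benjamini-Hochberg), with a median of 0.01.

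The largest rise was that of SdhBL, which read 9.45, 9.37, 9.27 and 9.26 on CD and 9.63, 9.63, 9.81 and 9.71 on HSD, a change of 0.35 (SE 0.06, adjusted p = 0.00154). All HSD arrays lay above all CD arrays. SdhCL, paralog of a membrane anchor of complex II, rose by 0.24 (SE 0.06, adjusted p = 0.0118). SdhAL, paralog of the flavoprotein subunit, rose by 0.23 (SE 0.06, adjusted p = 0.0204), and its groups touched, with 1 CD array at 8.16 and 1 HSD array at 8.15. All 3 complex II paralogs therefore passed, whereas 0 of the 3 canonical complex II subunits did.

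In complex IV, COX6AL read 9.60, 9.40, 9.38 and 9.37 on CD and 9.69, 9.74, 9.78 and 9.64 on HSD, a rise of 0.27 (SE 0.06, adjusted p = 0.00636). COX6AL2 rose by 0.27 (SE 0.07, adjusted p = 0.012). COX5BL rose from 9.92 ± 0.07 to 10.13 ± 0.06 and COX4L from 10.78 ± 0.04 to 10.99 ± 0.07 (SD, n = 4), and COX6CL rose by 0.19. The groups of all 5 did not overlap. COX7AL2, which differs from the other paralogs in its female signal, had a change of -0.08 and did not pass.

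The complex I paralogs ND-51L2 (0.20), ND-24L (0.20) and ND-B14.5AL (0.20) and the complex V paralog ATPsynGL (0.11) also rose. ND-51 and ND-24 belong to the module that binds NADH, and ATPsynG to the membrane part of the ATP synthase. ATPsynGL no longer passed after a further quantile normalization (adjusted p = 0.105), and 10 of the 17 called members remained in a single fit of all 80 arrays. When each of the 8 arrays was left out in turn, 10 of the 12 paralog rises passed every time, SdhAL in 6 fits and ATPsynGL in 1.

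Testis markers moved the same way in these arrays. Of 23 measured, 15 rose and 0 fell, with a median of 0.21, and the mean of the list ran from 9.53 to 9.61 over the CD arrays and from 9.69 to 9.76 over the HSD arrays. Among them dj, a sperm tail gene, rose by 0.39 and fzo, a mitofusin of spermatids, by 0.36. In whole flies fewer cells of a type and less RNA per cell cannot be told apart, and the part of the testis share in the rise of the paralogs was not tested. Of 12 muscle markers 3 rose, Act88F (1.29), bt (0.16) and sls (0.15), and 0 fell, with a median of 0.03, and the list ran from 10.78 to 10.86 over the CD arrays and from 10.88 to 11.01 over the HSD arrays. The part of the muscle share was not tested. The 3′ to 5′ gap was 2.98 on CD and 2.97 on HSD.

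The canonical falls in F0 males ran from -0.15 to -0.11, and 5 falls among 51 subunits lie near the background of 11.1% of all genes. None passed in all 8 fits that left out an array: ND-B14.5A passed in 5, ATPsyndelta in 4, ND-ACP in 3, and COX7A and ND-19 in 1 each. The total of called members was 10 without replicate 2 of the CD males and 11 without replicate 3 or 4. ND-B14.5A, an accessory subunit of complex I, read 11.26, 11.34, 11.29 and 11.37 on CD and 11.07, 11.18, 11.21 and 11.20 on HSD, a change of -0.15 (SE 0.04, adjusted p = 0.0255). ATPsyndelta, part of the central stalk of the ATP synthase, changed by -0.12 (SE 0.04, adjusted p = 0.024), with every HSD array below every CD array. COX7A (-0.12), ND-ACP, the acyl carrier protein of complex I (-0.11), and ND-19 (-0.11) also fell. ND-ACP was lower in all 3 of its probe sets, by -0.08, -0.11 and -0.17. The brightest members of each complex did not pass: ND-MLRQ was at 13.66 on both diets, SdhC at 12.10 and 12.11, UQCR-14 at 13.09 and 13.07, COX7B at 13.21 and 13.17, and ATPsynF at 13.22 and 13.23.

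Other nuclear genes of the chain, RFeSP, Cyt-c1, ox, blw, sun, levy and cype, changed by -0.05 to -0.01 in F0 males, and 0 of 7 passed. Of 5 regulators of mitochondrial transcription (ewg, TFAM, Ets97D, mtTFB2 and PolrMT) and 9 assembly factors 0 passed. Of 8 citric acid cycle genes 1 fell, Idh3a, a subunit of isocitrate dehydrogenase (-0.11). Of 9 carriers and uncouplers the uncoupling protein genes Ucp4B (0.26) and Ucp4C (0.24) rose, as did the adenine nucleotide translocase gene Ant2 (0.24), while porin, the outer membrane channel, changed by -0.17.

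F0 females, asked the same question, showed no shared direction of the canonical subunits. Of 51, 6 rose and 3 fell, with a median of 0.01, against 23.1% of all genes that rose and 18.2% that fell (median 0.02). Of the 21 paralogs 14 were bright enough to be tested in females, and 1 rose and 1 fell.

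COX7AL2 rose most, from 10.15, 10.44, 10.22 and 10.27 on CD to 10.86, 10.83, 10.82 and 10.66 on HSD, a change of 0.52 (SE 0.07, adjusted p = 0.000358). All HSD arrays lay above all CD arrays. The testis marker list averaged 3.88 ± 0.02 and 3.89 ± 0.06 in the same groups (SD, n = 4), and 1 of 9 markers tested rose (twe, 0.57). ND-51L1, at 4.35 on CD and 4.21 on HSD and near the lower end of the signal range, fell, and its groups overlapped.

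Complex I subunits moved both ways in F0 females. ND-B8 read 6.77, 6.95, 6.90 and 6.86 on CD and 7.20, 7.08, 7.09 and 6.95 on HSD, a rise of 0.21 (SE 0.06, adjusted p = 0.0221). ND-51, the subunit that binds NADH, rose by 0.14 and ND-MLRQ by 0.14. ND-42 read 11.37, 11.44, 11.41 and 11.46 on CD and 11.21, 11.22, 11.29 and 11.23 on HSD, a change of -0.18 (SE 0.04, adjusted p = 0.00578). ND-B16.6 changed by -0.15 (SE 0.04, adjusted p = 0.0185), with HSD arrays from 11.33 to 11.35 and CD arrays from 11.42 to 11.56. The groups of each of these genes lay apart, those of ND-B8 by less than 0.01.

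In complex III, UQCR-Q rose by 0.16 (SE 0.05, adjusted p = 0.0296) and UQCR-6.4 by 0.12 (SE 0.04, adjusted p = 0.0306), both small subunits of the cytochrome bc complex. In complex IV, COX7B rose by 0.15 (SE 0.05, adjusted p = 0.0285). A second probe set of COX7B, at 12.72 on CD, differed by 0.09, and the remaining one read 3.89 and 3.93, near the lower end of the range. In complex V, ATPsynD, a subunit of the stalk that holds the catalytic head still, changed by -0.11 (SE 0.04, adjusted p = 0.0492). In complex II 0 of 3 passed. The brightest members of complexes II and V, SdhC (11.48 and 11.53) and ATPsynF (13.13 and 13.24), did not pass either.

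Of these 11 calls in F0 females only those of COX7AL2 and ND-42 passed in all 8 fits that left out an array. ND-B16.6 passed in 7, ND-B8 and ND-51 in 5, UQCR-Q and UQCR-6.4 in 4, COX7B and ND-MLRQ in 3, ND-51L1 in 1 and ATPsynD in 0, with no change of sign. The count was 4 without replicate 1 or 3 on CD or replicate 3 on HSD, and 6 without replicate 4 on CD or replicate 2 on HSD.

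Muscle markers were also higher on HSD in F0 females: 8 of 12 measured rose and 0 fell, with a median of 0.23, and the list ran from 9.30 to 9.47 over the CD arrays and from 9.55 to 9.87 over the HSD arrays. The flight muscle actin gene Act88F rose by 1.66. Of the ovary markers 1 of 14 rose and 2 fell. Their part in the changes of the chain was not tested. Of the other lists, ox, a small complex III subunit, rose by 0.12, the transcription factor gene Ets97D by 0.15, the assembly factor genes Cox17 and Coa7 by 0.22 and 0.15, Ogdh, a subunit of oxoglutarate dehydrogenase, by 0.18 and porin by 0.19, while Ant2 changed by -0.24. The 3′ to 5′ gap was 2.68 on CD and 2.74 on HSD.

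**Figure D2:**
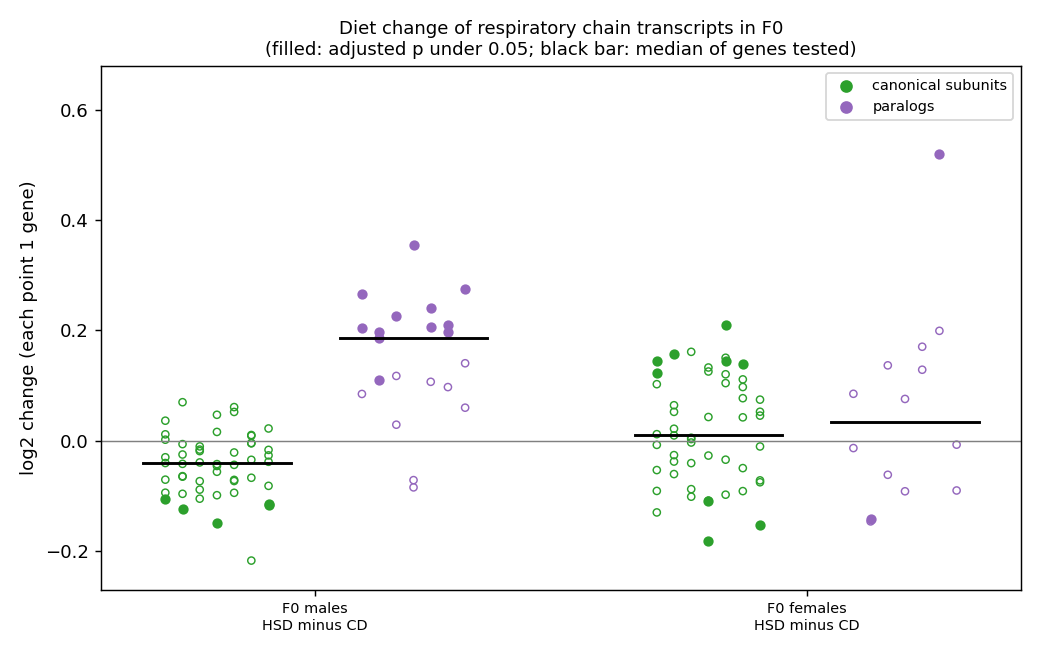
Change of each member between diets in F0 males and F0 females, as HSD minus CD in log2 units (vertical axis). Canonical subunits are in green and paralogs in purple, filled where the adjusted p was under 0.05. Each black bar is the median of the tested members of that class in that comparison. In males 12 of 21 paralogs rose and 5 of 51 canonical subunits fell, and in females 6 canonical subunits rose and 3 fell.

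The difference between the sexes in their response to diet was tested directly, as the female change minus the male change over all 16 F0 arrays, which are the arrays of both diet comparisons. Of 51 canonical subunits 6 were higher in this difference and 0 lower, and of 21 paralogs 1 was higher and 5 lower, against 14.5% of all genes higher and 15.8% lower. COX7AL2 differed by 0.60 (SE 0.08, adjusted p = 5.06e-05), having risen in females and not in males. COX5BL (-0.38, SE 0.07, adjusted p = 0.000456), COX6AL (-0.37), COX4L (-0.30), SdhBL (-0.30) and ND-51L1 (-0.20) were lower. In females their means on both diets lay between 3.06 and 4.35, near the lower end of the signal range. COX5BL, COX4L and SdhBL were too dim in females for the female diet test and entered this one through their male signal.

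Among canonical subunits the diet change was higher in females than in males for ND-B8 (0.28, SE 0.08, adjusted p = 0.0112), ND-B14.5A (0.28), ND-ACP (0.19), COX7B (0.19), ATPsyndelta (0.18) and ND-MLRQ (0.14). For ND-B14.5A, ND-ACP and ATPsyndelta the male fall was called and the female change was not. With each of the 16 arrays left out in turn, ND-B8, COX7B, COX7AL2, COX5BL, COX6AL, COX4L and ND-51L1 passed every time, SdhBL in 8 fits, ND-ACP in 7, ND-B14.5A in 5, and ATPsyndelta and ND-MLRQ in 2. The total was 7 without replicate 3 or 4 of the CD males. Testis markers gave 9 of 23 lower and 2 higher, and muscle markers 7 of 12 higher and 0 lower, in the same difference.

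The ancestry comparisons asked whether descendants that ate the same diet differ by what their F0 male forebears had eaten. In F1 females fed HSD the canonical subunits were higher with HSD ancestry: 11 of 51 rose and 0 fell, 50 of 51 had a positive sign and the median was 0.08, against 3.02% of all genes that rose, 1.09% that fell and a median of 0.00. The 11 were spread over complexes I (6 of 27), II (2 of 3), III (1 of 4) and IV (2 of 7), with 0 of 10 in complex V. Of 18 paralogs tested COX7AL2 rose.

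SdhB, the iron-sulfur subunit of complex II, read 11.22, 11.17, 11.26 and 11.25 with CD ancestry and 11.502, 11.48, 11.51 and 11.45 with HSD ancestry, a rise of 0.26 (SE 0.03, adjusted p = 0.00493). SdhC, a membrane anchor of the same complex, read 11.71, 11.67, 11.74 and 11.72 with CD ancestry and 11.96, 11.86, 11.85 and 11.91 with HSD ancestry, a rise of 0.19 (SE 0.03, adjusted p = 0.0198). Neither pair of groups overlapped. SdhB, UQCR-14 and COX7AL2 passed whichever array was left out.

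In complex I, ND-B8 read 6.02, 5.70, 5.94 and 6.11 with CD ancestry and 6.70, 6.38, 6.58 and 6.48 with HSD ancestry, a rise of 0.59 (SE 0.10, adjusted p = 0.0151). ND-B16.6 rose by 0.21 (SE 0.04, adjusted p = 0.0229), ND-51 by 0.20, ND-18, a subunit needed late in the assembly of the enzyme, by 0.17, ND-B17.2 by 0.16 and ND-B14 by 0.12. All 4 HSD-ancestry arrays of each lay above all 4 of CD ancestry.

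UQCR-14 of complex III read between 12.71 and 12.73 with CD ancestry and between 12.86 and 12.88 with HSD ancestry (change 0.15, SE 0.02, adjusted p = 0.0113). In complex IV, COX5B rose by 0.14 and COX4 by 0.13. COX7AL2 read 10.59, 10.37, 10.57 and 10.59 with CD ancestry and 11.11, 10.89, 10.91 and 10.91 with HSD ancestry, a rise of 0.42 (SE 0.07, adjusted p = 0.0137).

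For male-limited transcripts replicate 1 of CD ancestry stood 0.38 above the lowest array of this set. One HSD-ancestry array, replicate 1, stood at 0.73 and holds male-limited transcripts by the margin used. The testis markers in it averaged 5.82, and over the 4 HSD-ancestry arrays they ran from 4.95 to 5.82, against 4.84 to 5.44 with CD ancestry. Without it 8 of the 12 members passed: SdhB (0.25), SdhC (0.16), ND-B8 (0.54, adjusted p = 0.0399), ND-18, ND-51, ND-B17.2, UQCR-14 and COX7AL2 (0.37, adjusted p = 0.0283). Leaving out single arrays gave 4 to 11 called members, with no change of sign of a named member. The count was 4 without replicate 2 of CD ancestry or replicate 3 of HSD ancestry, 5 without replicate 1 of CD ancestry and 7 without replicate 4 of HSD ancestry.

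Other measures in these arrays moved as follows. Of the other nuclear chain genes 2 of 7 rose, ox by 0.22 and RFeSP, the Rieske iron-sulfur protein of complex III, by 0.15, with all 7 positive. Of 8 citric acid cycle genes 2 rose, Ogdh (0.26) and the aconitase gene mAcon1 (0.21), with all 8 positive. Of 9 assembly factors Cox17 rose (0.19), and of 5 regulators and 9 carriers 0 passed. Of 12 muscle markers 3 rose and 0 fell, with a median of 0.12, sls (0.30), Zasp66 (0.27) and bt (0.19), and the list ran from 10.93 to 11.04 with CD ancestry and from 11.02 to 11.15 with HSD ancestry. Their part in the rise of the chain was not tested. The 3′ to 5′ gap was 1.28 in both groups.

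In F1 females fed CD 0 of 51 canonical subunits and 0 of 8 paralogs tested passed, with 2.49% of all genes higher and 0.156% lower. The canonical median was 0.07 and 43 of 51 had a positive sign, against a median of 0.02 and 5808 of 10227 for all genes. An unadjusted p under 0.05 (limma) was found for 6 of 51, against 1874 of 10227 genes tested. The smallest p values were those of ATPsynepsilonL (0.26, SE 0.08, adjusted p = 0.105) and COX8 (0.16, SE 0.05, adjusted p = 0.141), whose groups overlapped at 12.92 to 12.95. SdhB read 10.79, 10.94, 10.998 and 10.97 with CD ancestry and 10.999, 11.03, 11.13 and 11.03 with HSD ancestry, without passing.

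Averaged over both own diets, with own diet as a term and the same 16 arrays, 14 of 51 canonical subunits and COX7AL2 rose in F1 females with HSD ancestry and 0 fell, against 4.25% and 0.515% of all genes. Of 51 canonical changes 49 were positive, with a median of 0.09 against 0.01 for all genes. Complex I gave 7 of 27, complex II 2 of 3, complex III 2 of 4, complex IV 3 of 7 and complex V 0 of 10. SdhB rose by 0.19 (SE 0.03, adjusted p = 0.00519), ND-B16.6 by 0.16 (SE 0.03, adjusted p = 0.00442) and COX7AL2 by 0.27 (SE 0.07, adjusted p = 0.0402). Without replicate 1 of the HSD-fed females of HSD ancestry 8 of the 15 passed, and COX7AL2 was not among them (adjusted p = 0.072). With each of the 16 arrays left out in turn, SdhB, SdhC, UQCR-14, ND-B16.6, ND-18, COX4 and COX5B passed every time and COX7AL2 in 3 fits. Of the other chain genes ox (0.15), cype (0.12) and levy (0.10), the last 2 of complex IV, rose.

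**Figure D3:**
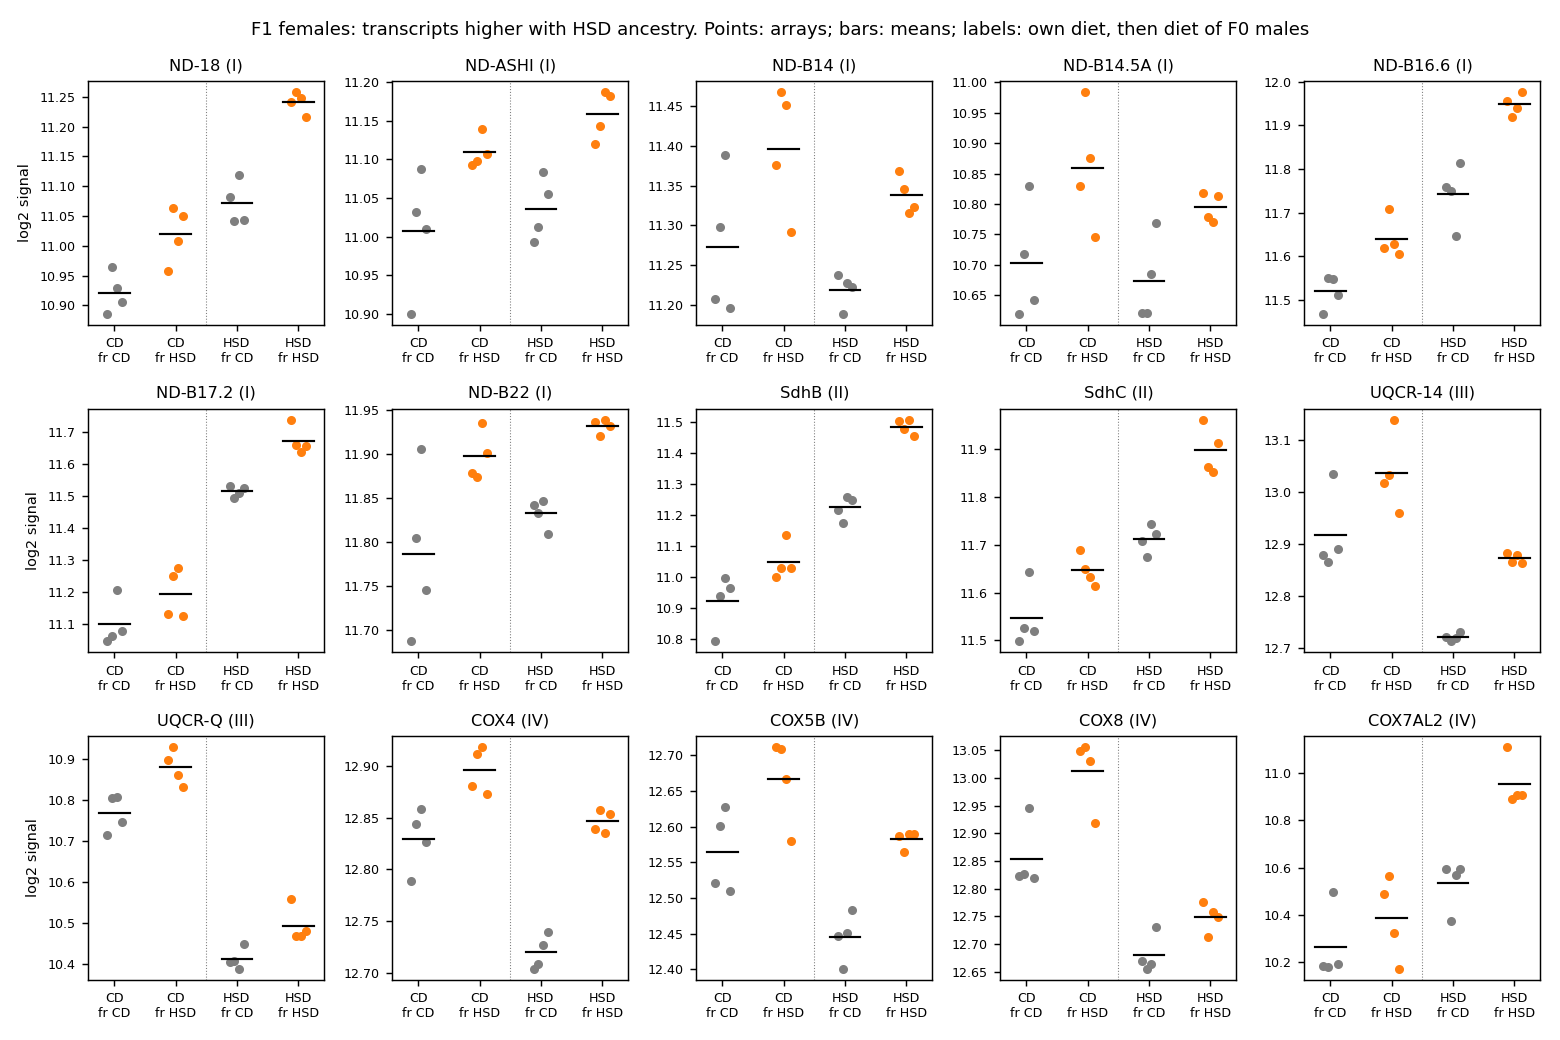
Log2 signal (vertical axis) of the 15 members that rose with HSD ancestry in F1 females averaged over own diet, with each array as a point, the mean as a bar, CD ancestry in grey and HSD ancestry in orange, CD-fed flies left of the dotted line and HSD-fed flies right of it. In HSD-fed flies the groups of SdhB, SdhC and COX7AL2 lie apart, and in CD-fed flies those of COX7AL2 overlap.

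The difference between the ancestry changes on the 2 own diets was tested after seeing the data, with 0.721% of all genes higher and 2.13% lower in F1 females. ND-B8 differed by 0.76 (SE 0.15, adjusted p = 0.0114) and ND-51 by 0.31 (SE 0.05, adjusted p = 0.00412). ND-B8 read 6.14, 6.13, 6.22 and 5.90 in CD-fed flies of CD ancestry and 6.13, 5.70, 6.03 and 5.87 in those of HSD ancestry, and ND-51 read from 11.66 to 11.69 and from 11.52 to 11.63. Both thus rose with HSD ancestry in HSD-fed flies. In CD-fed flies both were lower with HSD ancestry without passing, ND-51 with no overlap between the groups and ND-B8 with overlap. The called differences include these opposite changes. Both calls of the difference remained whichever array was left out. For the other members this difference did not pass.

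In F1 males fed CD 0 of 21 paralogs passed, while 20 of their 21 changes with HSD ancestry were negative, with a median of -0.15, and 11 had an unadjusted p under 0.05. Over all genes 3.2% rose and 1.3% fell, with a median of 0.01, and 2682 of 10805 had an unadjusted p under 0.05 (limma). UQCR-11L read 10.44, 10.11, 10.33 and 10.06 with CD ancestry and 9.90, 9.96, 10.004 and 9.89 with HSD ancestry (change -0.30, SE 0.08, adjusted p = 0.0544). ATPsynCF6L read 10.003, 9.93, 10.01 and 9.83 with CD ancestry and 9.69, 9.83, 9.69 and 9.64 with HSD ancestry (change -0.23, SE 0.06, adjusted p = 0.0505). Of 23 testis markers 3 fell (ProtA, twe and aly) and 0 rose, with a median of -0.15, and the list ran from 9.95 to 10.02 with CD ancestry and from 9.79 to 9.93 with HSD ancestry. Replicates 1 and 4 of the HSD-ancestry group hold female-limited transcripts, and the part of testis share and of these transcripts in the paralog values was not tested.

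The canonical call in F1 CD-fed males was ATPsynbeta alone, the catalytic subunit of the ATP synthase. It read 10.50, 11.03, 10.77 and 10.98 with CD ancestry and 11.30, 11.26, 11.18 and 11.53 with HSD ancestry, a rise of 0.50 (SE 0.11, adjusted p = 0.0292) with no overlap. Its other probe set read 11.71 ± 0.10 and 11.67 ± 0.04 in the same groups (SD, n = 4), a difference of -0.04, and with the mean of both probe sets the gene did not pass (adjusted p = 0.0809). The 3′ to 5′ gap was 3.68 ± 0.15 with CD ancestry and 3.34 ± 0.16 with HSD ancestry (SD, n = 4). Without replicates 1 and 4 of HSD ancestry the change was 0.40 (adjusted p = 0.225).

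In F1 males fed HSD no gene passed, members included (0% of all genes, and 1274 of 10916 genes at an unadjusted p under 0.05 by limma). Of 51 canonical changes 45 were positive, with a median of 0.07, and 20 had an unadjusted p under 0.05. Over all genes 5636 of 10916 changes were positive, with a median of 0.00. The smallest p values were those of COX7AL2, which read 11.92, 11.999, 12.06 and 12.01 with CD ancestry and 12.23, 12.25, 12.17 and 12.16 with HSD ancestry (change 0.20, SE 0.04, adjusted p = 0.124), and ND-13B, an accessory subunit of complex I (0.15, SE 0.03, adjusted p = 0.128). The groups of COX7AL2 did not overlap. With a trended and robust variance prior 100 genes passed, among them these 2 and 1 more member.

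Averaged over own diet, F1 males of HSD ancestry had higher ND-PDSW, an accessory subunit of complex I (0.14, SE 0.03, adjusted p = 0.0471), ND-13B (0.11, SE 0.03, adjusted p = 0.0445) and COX7AL2 (0.15, SE 0.04, adjusted p = 0.0499), with 1.18% of all genes higher and 0.386% lower. None of the 3 passed without the arrays that hold female-limited transcripts, and each passed in at most 2 of the 16 fits that left out 1 array. In the difference between own diets, added after seeing the data, 0.961% of all genes were higher and 2.78% lower. UQCR-11L (0.40, SE 0.10, adjusted p = 0.0297), UQCR-14L (0.32) and COX7AL (0.28) were higher, and all 21 paralogs had a positive sign, against 5360 of 11132 genes. In HSD-fed males UQCR-11L read 9.66, 9.64, 9.73 and 9.64 with CD ancestry and 9.83, 9.81, 9.67 and 9.78 with HSD ancestry. None of the 3 passed without replicates 1 and 4 of the CD-fed males of HSD ancestry.

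**Figure D4:**
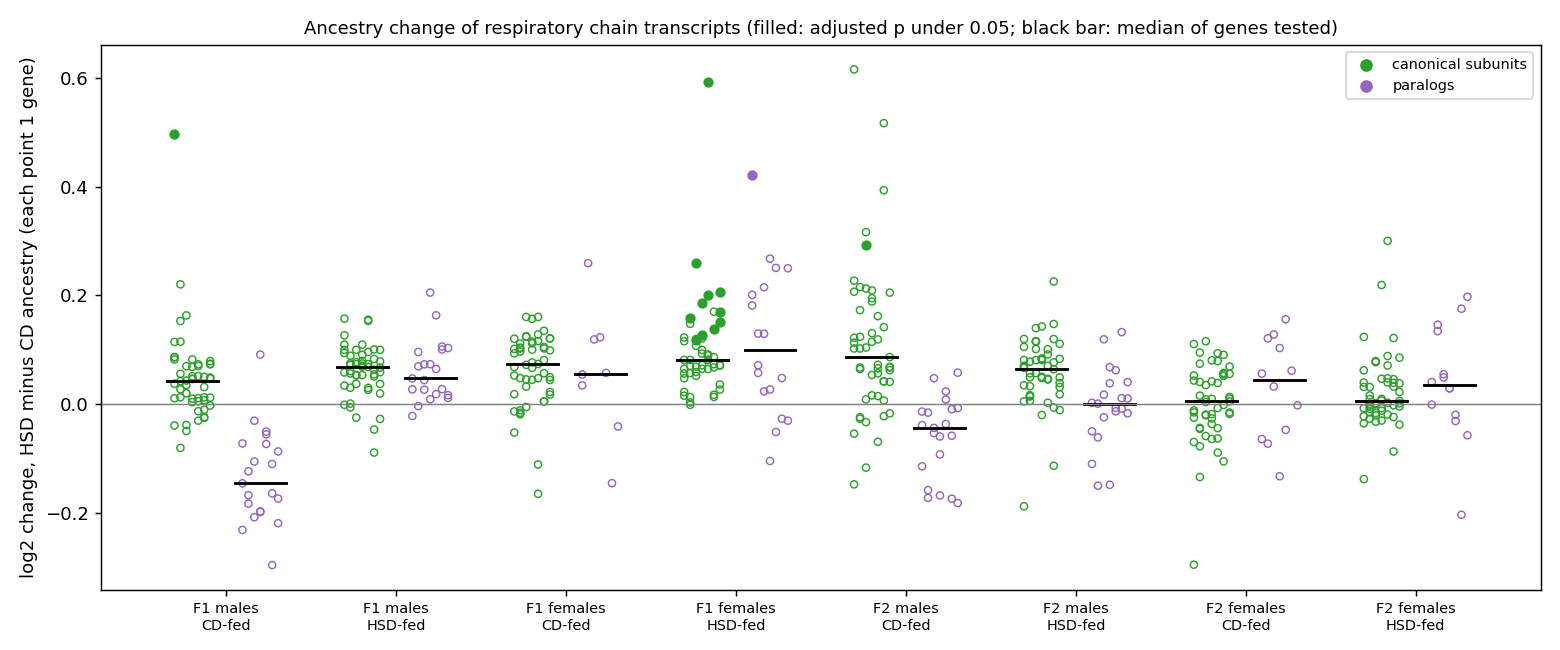
Change of each member with HSD ancestry in the 8 descendant sets, as HSD minus CD ancestry in log2 units (vertical axis). Canonical subunits are in green and paralogs in purple, filled where the adjusted p was under 0.05. Each black bar is the median of the tested members of that class in that comparison. Most filled points are in F1 females fed HSD, and the paralogs of F1 males fed CD have a median of -0.15.

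In F2 the descendants showed 1 called member. In F2 males fed CD, ND-39, an accessory subunit of complex I, read 11.60, 11.63, 11.65 and 11.65 with CD ancestry and 11.77, 12.01, 12.04 and 11.87 with HSD ancestry, a rise of 0.29 (SE 0.07, adjusted p = 0.0467), with 2.14% of all genes higher and 0.85% lower. The groups did not overlap, and ND-39 passed in 1 of the 8 fits that left out an array. SdhB read 11.94, 11.80, 12.15 and 12.13 with CD ancestry and 12.26, 12.28, 12.37 and 12.38 with HSD ancestry (0.32, adjusted p = 0.0585). Of 51 canonical changes 42 were positive, with a median of 0.09 against 0.03 for all genes. In the same arrays the 3′ to 5′ gap was 4.11 ± 0.58 with CD ancestry and 3.36 ± 0.33 with HSD ancestry (SD, n = 4). Of 12 muscle markers 0 passed, with a median of 0.09, and the list ran from 10.88 to 10.99 with CD ancestry and from 10.995 to 11.08 with HSD ancestry. Of 23 testis markers 3 fell and 0 rose, and the list ran from 9.70 to 9.81 and from 9.65 to 9.69, with 17 of 21 paralog changes negative. The part of the gap and of these markers in the changes was not tested.

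In F2 males fed HSD 0 of 73 members passed, with 0.192% of all genes higher and 0.00913% lower, and the smallest p values were those of ND-75, the largest subunit of complex I (0.23, SE 0.08, adjusted p = 0.551), and SdhB (0.14, adjusted p = 0.681). Of these 73 members 1 had an unadjusted p under 0.05 (limma), against 800 of 10952 genes. Replicates 1, 2 and 4 of the HSD-ancestry group hold female-limited transcripts, at 0.59, 0.89 and 0.70 above the lowest array of the set. Replicate 3 stood at 0.38, and the CD-ancestry arrays at 0.02 or less. Ancestry and these transcripts thus coincide here, and their part in the values was not tested. In F2 females fed CD 0 of 51 canonical subunits passed, with 0.5% of all genes higher and 0.793% lower and a canonical median of 0.00. The smallest p values were those of ATPsynbeta (-0.30, SE 0.12, adjusted p = 0.198) and ATPsynC (-0.13, adjusted p = 0.251). The other probe set of ATPsynbeta read 11.81 with CD ancestry and 11.85 with HSD ancestry in these females. Their 3′ to 5′ gap was 2.71 with CD ancestry and 2.96 with HSD ancestry. In F2 females fed HSD 0 of 51 passed, with 0.404% higher and 0.385% lower. There ND-B8 changed by 0.30 (SE 0.08, adjusted p = 0.116) and ND-75 by 0.12 (adjusted p = 0.139).

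Averaged over own diet 0 members passed in F2 males (0.0535% of all genes higher, 0.00891% lower) and 0 in F2 females (1.94% higher, 6.52% lower). In F2 males 16 of 51 canonical subunits had an unadjusted p under 0.05 (limma), against 1939 of 11220 genes. Of the 51 changes 45 were positive, against 6498 of 11220 over all genes. SdhB changed by 0.23 and ND-39 by 0.20 there, and in the single fit of all 80 arrays, which uses the spread of all groups, both passed among 22 members. The F2 male arrays include those of HSD-fed males of HSD ancestry that hold female-limited transcripts. In F2 females COX7B changed by 0.12 and ND-B14.5A by 0.15.

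Levels across own diets in F1 and F2 belong to separate sets and batch labels, so own diet and batch cannot be told apart there. The F0 means of ATPsynbeta were 12.16 and 12.20 in males on CD and HSD and 12.35 and 12.45 in females. With CD ancestry it read 10.82 in CD-fed and 13.63 in HSD-fed F1 males, 11.85 and 13.61 in F1 females, 10.95 and 12.88 in F2 males, and 11.95 and 13.01 in F2 females. The second probe set of ATPsynbeta read 11.71 and 11.88 in the same F1 males, 12.10 and 12.08 in F1 females, 11.26 and 11.10 in F2 males, and 11.81 and 11.47 in F2 females. The 3′ to 5′ gap of the control probe sets was 3.68 and 1.47 in these F1 males, 3.30 and 1.28 in F1 females, 4.11 and 1.67 in F2 males and 2.71 and 1.40 in F2 females. In all 4 the set with the smaller gap thus gave the higher signal of the probe set used, while the other probe set was higher in 1 and lower in 3. The part of the gap in these levels was not tested.

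**Figure D5:**
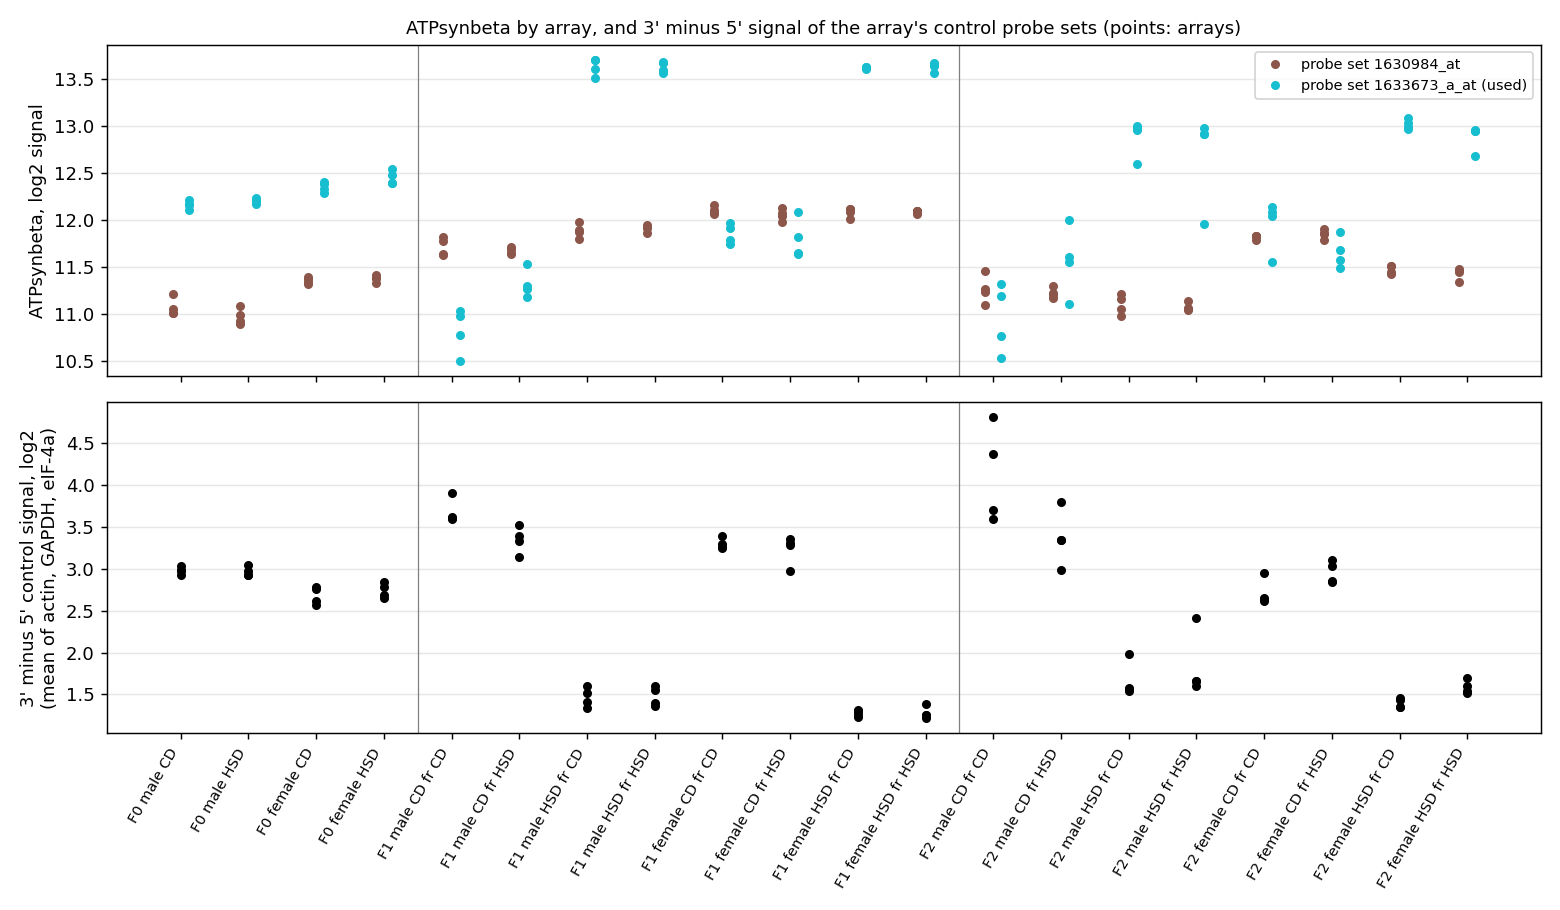
Both probe sets of ATPsynbeta by array (top, log2 signal) and the mean gap between 3′ and 5′ signal of 3 control transcripts (bottom, log2 units) in the 20 groups, with each array as a point, the probe set used in cyan and the other in brown. With CD ancestry the probe set used averaged 13.63 in HSD-fed and 10.82 in CD-fed F1 males, where the gap was 1.47 and 3.68.

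For the canonical subunits as a whole the mean of the 51 was 11.76 ± 0.02 and 11.72 ± 0.02 in F0 males on CD and HSD and 11.46 ± 0.04 and 11.48 ± 0.04 in F0 females (SD over 4 arrays). In descendants it ran from 11.49 in F1 males fed CD to 12.08 in F1 males fed HSD, and from 11.19 in F2 females fed HSD to 11.65 in those fed CD. Relative to the array median the F1 males lay between 4.65 and 4.74 on both diets. The mean of the 21 paralogs was 9.32 in CD-fed and 9.16 in HSD-fed F1 males of CD ancestry, and 9.28 and 8.51 in the F2 males. Relative to the array median it was 2.49 and 1.83 in the F1 males and 2.52 and 2.12 in the F2 males, lower in the HSD-fed sets. The testis markers averaged 9.99 and 9.54 in the F1 males and 9.76 and 8.75 in the F2 males, and neither the share of testis RNA nor the batch was tested as a source.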

How the data were processed

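Per the submitters' processing notes the authors used RMA and limma, with versions not given in the sources used here; each value they deposited is a log2 signal of 1 probe set. Of 18952 probe sets, 13647 have 1 gene symbol and stand for 11982 genes; for a gene with several, the one with the highest mean over all arrays was used. Symbols of all 73 members were matched by Entrez number to RefSeq. Left out were 4 probe sets shared with other genes. Tests were two-sided limma fits (lmFit, contrasts.fit, default eBayes) of only the arrays compared. Genes below the 25th percentile of group means in all groups compared were dropped, and p values were adjusted by Benjamini-Hochberg over all genes tested, with a threshold of 0.05. Sorted values differed by a median of 0.04 to 0.11 among the 8 arrays normalized together, and by 1.15 among all 80. Named members were, by rule, up to 6 largest rises and falls with groups that do not overlap and the brightest of each complex in F0, up to 4 each way in the difference between sexes, up to 3 each way or the 2 smallest p values per ancestry comparison, and paralogs anywhere; other members named beside them were chosen after their values were seen. The members, gene lists and comparisons were chosen with earlier results of these data known. Fits were also run on simulated data with independent noise for each gene and array. That noise holds no effect shared by the genes of an array, so the simulation cannot speak to such effects. Arrays give no counts, and their number limits the precision. Software was R 4.3.3 with data.table (1.17.8) and limma (3.58.1), and matplotlib 3.10.9, numpy 2.4.6 and pandas 2.3.3 in Python 3.11.15.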

Additional observations from a re-analysis of the deposited data

Results flagged for a closer look

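In the 124 groups of 4 arrays checked (the means over the canonical subunits and over the paralogs in every group, and each called member in its groups), 8 held 1 array far from the other 3, with a gap over 0.829 of the group's range; chance gives about 1 in 20. In F0 CD males replicate 1 was high for 3 paralogs, COX6AL (9.6042), ND-24L (8.1) and ND-B14.5AL (8.9764). In HSD-fed F1 females of HSD ancestry replicate 1 was high for the paralog mean (5.1815) and COX7AL2 (11.11), and replicate 2 was low for COX5B (12.5648). In HSD-fed F1 females of CD ancestry replicate 2 was low for COX7AL2 (10.3734), and in HSD-fed F2 males of HSD ancestry replicate 2 was high for the paralog mean (8.625).

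The diet change differed between the sexes, by the test of the difference in limma, for 12 members. Females minus males was positive for COX7AL2 (0.6041), ND-B8 (0.2801), ND-B14.5A (0.2753), ND-ACP (0.1883), COX7B (0.1857), ATPsyndelta (0.1766) and ND-MLRQ (0.1429). It was negative for COX5BL (-0.3832), COX6AL (-0.3663), COX4L (-0.3044), SdhBL (-0.3021) and ND-51L1 (-0.2015). In females these paralogs lay near the lower end of the signal range. COX5BL, COX4L and SdhBL were too dim there for the female diet test and entered the difference through their male signal.

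The ancestry change differed between own diets, HSD-fed minus CD-fed, for UQCR-11L (0.402), UQCR-14L (0.3223) and COX7AL (0.2812) in F1 males and for ND-B8 (0.7576) and ND-51 (0.3118) in F1 females. In F1 the own diets carry different batch labels, so own diet and batch cannot be told apart in these differences.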

How the results depend on the processing

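No call changed sign under the alternatives run, and the count of members called for the difference between sexes in F0, 12, moved by less than 1.5 times except when arrays were left out. The cause of the other shifts was not tested. One fit of all 80 arrays gave 10 called members in F0 males, 17 in F0 females, 7 in CD-fed F1 males, 3 in CD-fed F1 females, 23 in CD-fed F2 males, 1 each in F2 females fed CD and HSD, 22 and 6 averaged over own diet in F2 males and females, and 0 and 3 for the difference between own diets in F1 and F2 males. A trended robust prior gave 11 and 3 in CD-fed and HSD-fed F1 males, 1 and 23 in CD-fed and HSD-fed F1 females, 3 in CD-fed F2 males, 6 for the F1 male difference and 3 averaged in F2 females. A further quantile normalization gave 3 in CD-fed F1 males, 0 in CD-fed F2 males, 1 in HSD-fed F2 females, 1 averaged in F2 females, 9 averaged in F1 females and 5 for the F1 male difference. Without the dim filter F1 males averaged had 0.

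The main fits did not treat same-numbered replicates as pairs. Correlations of same-numbered deviations ran from -0.322 to 0.644. The highest was that of replicate 1 of the HSD-fed F1 females, where replicate 4 gave 0.351, so pairing in that set stays possible. With the replicate block 2 members were called in F0 females, 3 in HSD-fed F1 females and 0 averaged in F1 males. Without the arrays that hold transcripts of the other sex the counts were 0 in CD-fed F1 males, 0 averaged and 0 for the difference in F1 males, and 8 averaged in F1 females.

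Leaving out 1 array gave 10 to 17 members in F0 males, 4 to 13 in F0 females, 7 to 15 for their difference, 0 to 3 and 0 in CD-fed and HSD-fed F1 males, 0 to 1 and 4 to 11 in CD-fed and HSD-fed F1 females, 0 to 2 and 7 to 19 averaged in F1 males and females, 0 to 4 in CD-fed F2 males, 0 to 1 in CD-fed F2 females, 0 to 4 averaged in F2 females, 0 in the other F2 comparisons, and 0 to 6 and 2 to 3 for the difference in F1 males and females. Changes of 0.1 to 0.2 rest on 4 arrays a group.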
